A study of Homo sapiens with 21 samples.

Results

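Desmosomes are the cell-to-cell junctions that tie the keratin filaments of neighbouring epithelial cells together. Their adhesive layer is made of 2 subfamilies of cadherins, the desmogleins (DSG genes) and the desmocollins (DSC genes). Inside the cell these cadherins bind plakoglobin (JUP) and the plakophilins (PKP1, PKP2 and PKP3), which in turn bind desmoplakin (DSP), the plakin that holds the keratins. PERP is a small membrane protein that stratified epithelia need to build desmosomes. In layered epithelia DSG3 and DSC3 belong mainly to basal layers, whereas DSG2, DSC2 and PKP2 are also made by simple epithelia. Loss of cell junctions is a classical feature of epithelial to mesenchymal transition (EMT), and TGFβ is a common inducer of it.

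The 10 desmosome genes DSG2, DSG3, DSC2, DSC3, JUP, PKP1, PKP2, PKP3, DSP and PERP were chosen by symbol from the 23201 genes listed, and all 10 were among the 13343 genes tested. They were followed in HMLE cells, an immortalized human mammary epithelial line, by RNA sequencing of total RNA. Untreated cells (d0) were compared with cells after 1, 4, 7, 10, 15 and 20 days of TGFβ induction (d1 to d20), with 3 libraries for each of the 7 timepoints. All groups were seeded at the same density and share the one line, the study calls the libraries biological triplicates, and the labels give no dose of TGFβ and no untreated control kept for the later days, so time in culture and treatment cannot be told apart. Values are normalized read counts, each being the reads of a gene over the size factor of its library.

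Each library held between 18847917 and 22667754 reads. Libraries of a timepoint differed by 0.214 to 0.243 (root mean square log2 difference over genes) outside d7, and by more than counting noise everywhere. The third d7 library, numbered in file order as are all libraries here, stood apart, at 0.472 and 0.457 from the other d7 libraries, so results that use d7 are given with and without it. The epithelial label of the line was met by the keratins KRT5 and KRT14, which were among the highest values in every library. Among leukocyte and endothelial markers, PTPRC, CD3E and CDH5 had at most 1 read in any library, VWF had at most 13, PECAM1 at most 51 and CD14 at most 59. In bulk samples, fewer cells of a type and less RNA per cell cannot be told apart.

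The desmosome genes did not fall steadily during TGFβ treatment. At d10 and d20 most of them were below the untreated level, whereas at d7 and d15 most were at or above it. A group of 7, namely DSG3, DSC3, DSC2, DSP, JUP, PKP1 and PERP, moved together (a group formed after their values were seen), DSG2 changed least, and PKP2 fell from d1 onward. The plot of values by library shows this alternation for the 10 genes.

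**Figure D1:**
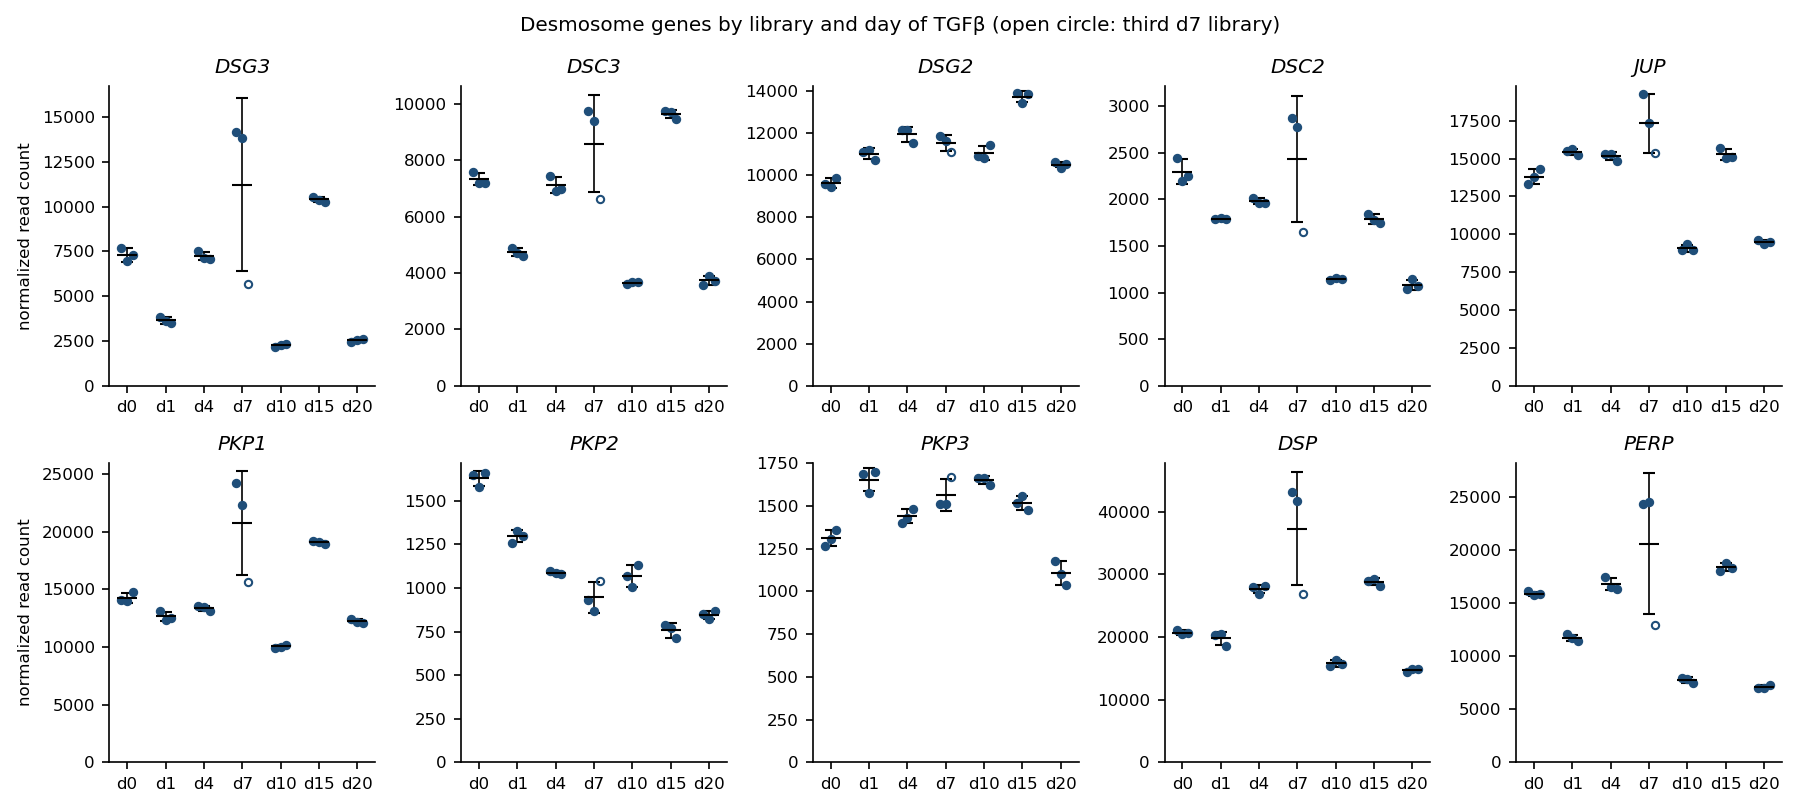
Normalized read count of the 10 desmosome genes (y axis from 0, one panel per gene) in the 3 libraries of each timepoint (x axis). Points are libraries, the horizontal mark is the mean and the bar is 1 SD (n = 3), and the open circle is the third d7 library; the DSG3 mean ran from 2263 (d10) to 11236 (d7), while the DSG2 mean stayed between 9619 and 13713.

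DSG3, the desmoglein of basal keratinocytes, varied most. Its normalized read counts were 7695, 6954 and 7287 at d0, 3863, 3649 and 3492 at d1, and 7525, 7134 and 7088 at d4. They were 14194, 13821 and 5694 at d7 and 2153, 2304 and 2332 at d10. The d15 libraries had 10555, 10394 and 10274, and the d20 libraries 2445, 2570 and 2617. All libraries of d1, d10 and d20 lay below all untreated ones and those of d15 lay above, d4 overlapped with d0, and at d7 the first and second libraries were above and the third below the untreated range. Against d0, the log2 fold change was -0.995 ± 0.20 (SE) at d1 (limma, adjusted p = 0.00017), -1.69 ± 0.20 at d10 (adjusted p = 1.3e-07) and -1.52 ± 0.20 at d20 (adjusted p = 7.3e-07), the last 2 being falls of 3.23-fold and 2.87-fold. At d15 it was 0.51 ± 0.20 (adjusted p = 0.022), which passed the threshold on the authors' scale but not after rescaling each library to the same total (0.35, adjusted p = 0.10) or after quantile normalization (0.42, adjusted p = 0.052).

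Just upstream of its start, DSG3 shares a stretch with DSG1, another gene of the cadherin cluster of chromosome 18. The genes stand there in the order DSC3, DSC2, DSC1, DSG1, DSG4, DSG3 and DSG2. DSG4 had no entry and was not compared. Among the 250 bases before the starts of the other cadherin genes (RefSeq, GRCh38.p14), the longest run common to 2 genes was 20 bases, in DSG1 and DSG3. No other pair of these shared more than 9. The stretches are shown because they hold this longest run. Capitals mark the shared run, which begins 120 bases before the DSG1 start (chr18:31318020-31318119, plus strand) and 78 bases before the DSG3 start (chr18:31447643-31447740, plus strand).
DSG1: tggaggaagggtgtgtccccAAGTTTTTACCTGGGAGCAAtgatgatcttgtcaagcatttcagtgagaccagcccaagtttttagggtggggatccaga
DSG3: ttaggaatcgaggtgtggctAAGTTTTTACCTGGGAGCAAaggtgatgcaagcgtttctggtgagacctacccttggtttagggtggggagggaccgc
DSG1, the desmoglein of upper epidermal layers, had 67, 69 and 37 reads in the d0 libraries, 3, 1 and 2 at d1 and none in the 3 libraries of d10, which puts it at least 17.5-fold lower there when 3 reads per library are taken as the floor. Unlike DSG3, it had only 2, 4 and 4 reads at d15. DSG1 was under the minimum mean for testing, so these are values without a test.

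DSC3, the desmocollin that accompanies DSG3 in basal layers, had 7569, 7180 and 7205 normalized reads at d0, 4879, 4721 and 4611 at d1, and 7423, 6904 and 6985 at d4. It had 9737, 9387 and 6624 at d7 and 3603, 3692 and 3684 at d10. By d15 the libraries had 9728, 9711 and 9449, followed by 3581, 3890 and 3733 at d20. The pattern repeated that of DSG3 with a smaller range: d1, d10 and d20 lay below all untreated libraries, d15 lay above, and the third d7 library was again low. Its log2 fold change against d0 was -0.63 ± 0.09 at d1 (limma, adjusted p = 2.1e-06), -0.999 ± 0.09 at d10 (adjusted p = 1.4e-09), 0.40 ± 0.09 at d15 (adjusted p = 0.00028) and -0.97 ± 0.09 at d20 (adjusted p = 2.6e-09). DSC3 and DSG3 had the most alike profiles of any 2 members, with a Pearson r of 0.99 over the 21 libraries, which share their timepoints in groups of 3.

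DSG2, the desmoglein found in all desmosome-bearing tissues, had 9556, 9431 and 9869 normalized reads at d0, 11110, 11185 and 10710 at d1, and 12147, 12118 and 11518 at d4. It had 11851, 11620 and 11071 at d7 and 10892, 10779 and 11397 at d10. Later counts were 13905, 13401 and 13832 (d15) and 10594, 10337 and 10539 (d20). Every treated library lay above the untreated ones, the third d7 library included. DSG2 was the only member called higher at every timepoint on the authors' scale. Its log2 fold changes lay between 0.13 ± 0.04 (d20, limma, adjusted p = 0.0042) and 0.51 ± 0.04 (d15, adjusted p = 2.1e-11). With libraries rescaled to the same total its sign turned at d10 (-0.031) and d20 (-0.075), and at d20 it was then called lower (limma, adjusted p = 0.044). On that scale it was not called at d1 (0.00039, adjusted p = 0.99) or d7 (0.068, adjusted p = 0.065). After quantile normalization its sign turned at d1 (-0.026), d10 (-0.067) and d20 (-0.080). Its difference from d0 at d4 and d15 kept its sign and its call under both.

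DSC2, the desmocollin of simple epithelia, had 2447, 2194 and 2246 normalized reads at d0, 1785, 1802 and 1791 at d1, and 2018, 1961 and 1960 at d4. It had 2871, 2777 and 1651 at d7 and 1140, 1157 and 1149 at d10. The d15 libraries had 1847, 1777 and 1749, and the d20 libraries 1037, 1142 and 1073. Every treated library outside d7 lay below the untreated ones, and of the 4 cadherins among the members DSC2 alone did not regain the d0 level at d15. Its log2 fold change was -0.997 ± 0.12 at d10 (limma, adjusted p = 2.7e-07), -0.36 ± 0.12 at d15 (adjusted p = 0.011) and -1.08 ± 0.12 at d20 (adjusted p = 9.5e-08). At d7 it was 0.04 ± 0.12 (adjusted p = 0.77) with all libraries and 0.30 without the third one (adjusted p = 9.1e-08).

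The cadherin promoters also differed in a 6-base word. CACCTG, on either strand (CAGGTG), is a letter pattern bound by the ZEB and SNAI repressors that are known from EMT. It occurred in 17.5% of all 35116 promoter stretches of the same 250 bases, and in at least 1 stretch of 4 of the 8 members with an entry, DSG2, DSC2, DSP and JUP. PKP2 and PKP3 had no entry. The 8 members have 10 stretches, and the word was absent from the first JUP and the second DSC2 stretch. A count of genes is thus not in the same unit as the share of stretches. The stretches of DSG2 (chr18:31497927-31498086, plus strand) and DSC2 (chr18:31102552-31102597, minus strand) are shown with the word in capitals, because they are the cadherins among the members that hold it in this window.
DSG2: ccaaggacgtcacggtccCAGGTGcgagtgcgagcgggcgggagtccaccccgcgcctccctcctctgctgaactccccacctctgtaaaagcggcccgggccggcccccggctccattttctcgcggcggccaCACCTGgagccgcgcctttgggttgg
DSC2: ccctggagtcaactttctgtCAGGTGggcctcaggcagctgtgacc
A match describes the letters only. Of the factors, ZEB1, ZEB2 and SNAI2 were called higher at every timepoint, while SNAI1 had between 0 and 4 reads per library and was not tested. ZEB1 went up to a log2 fold change of 6.02 ± 0.19 at d20 (limma, adjusted p = 5.1e-17).

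Within a subfamily the balance between the basal-type and the general cadherin was compared inside each library, as the ratio of normalized read counts, which cancels the size factor and is read here only between timepoints because it is not per length. DSG3/DSG2 was 0.81, 0.74 and 0.74 in the d0 libraries. Its mean was 0.333 ± 0.012 (SD, n = 3) on the first day, 0.205 ± 0.0081 at d10 and 0.243 ± 0.010 at d20, and the values between these were 0.608 ± 0.017 (d4) and 0.759 ± 0.016 (d15). The d7 libraries had 1.20, 1.19 and 0.51. The ratio was thus below all untreated libraries at d1, d4, d10 and d20, and back in the untreated range at d15. On the log2 scale it differed from d0 by -1.89 at d10, -1.65 at d20 and -0.0012 at d15. In the two-sided exact permutation test p was 0.10 at d10 and d20, the smallest that 3 against 3 libraries allow, and 0.13 after adjustment over the 12 comparisons made, so this test could not reach the threshold.

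DSC3/DSC2 moved otherwise. It was 3.19 ± 0.091 (SD, n = 3) in untreated cells, 2.64 ± 0.082 after the first day and 3.59 ± 0.081 by d4. The d7 libraries had 3.39, 3.38 and 4.01, and the later means were 3.19 ± 0.024 (d10), 5.38 ± 0.10 (d15) and 3.45 ± 0.036 (d20). The ratio was highest at d15, above every other library, and at d10 it was within the untreated range. The log2 difference from d0 was 0.75 at d15 (two-sided exact permutation p = 0.10, adjusted p = 0.13, the smallest possible) and -0.0027 at d10 (p = 0.90, adjusted p = 0.98).

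**Figure D2:**
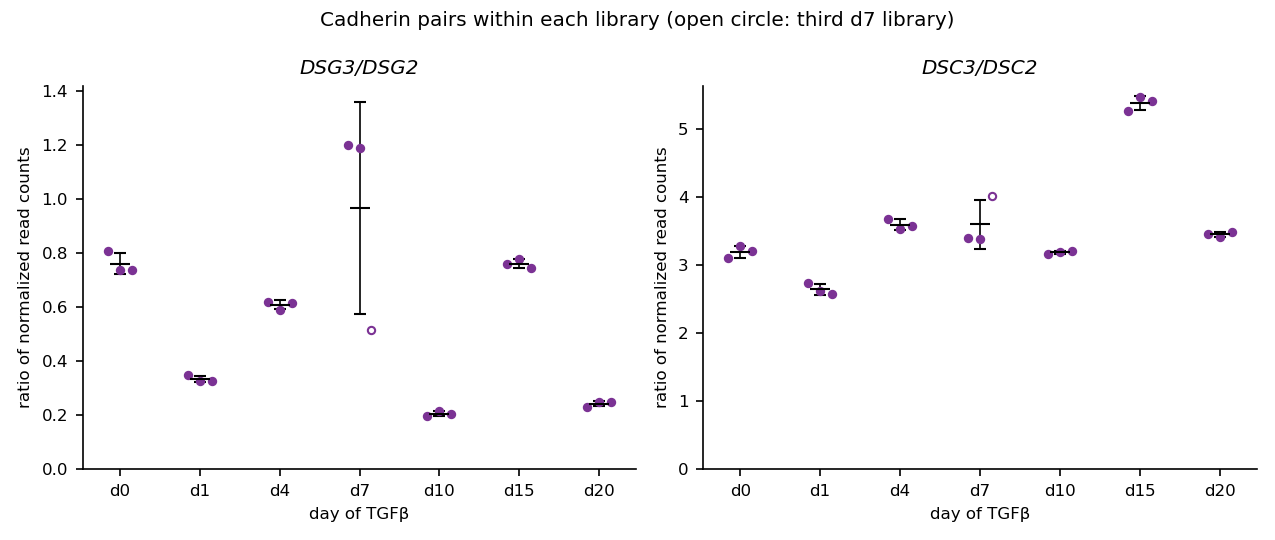
Ratio of normalized read counts within each library (y axis from 0) by day of TGFβ (x axis) for DSG3/DSG2 and DSC3/DSC2. Points are libraries, marks and bars are mean and 1 SD (n = 3), and the open circle is the third d7 library; DSG3/DSG2 was 0.205 at d10 and 0.243 at d20 against 0.760 at d0, and DSC3/DSC2 peaked at 5.38 at d15.

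Per kilobase of the longest principal GENCODE transcript, the 2 desmogleins were close to even in untreated cells and DSG2 prevailed when DSG3 was low. DSG2 made up 54.1%, 56.2% and 56.2% of the desmoglein level per kilobase (DSG2 plus DSG3) in the d0 libraries, 82.2% ± 0.58 (SD, n = 3) at d10, 55.5% ± 0.54 at d15 and 79.6% ± 0.69 at d20. At d7 it was 44.2%, 44.3% and 64.8%, so that DSG3 was the more abundant desmoglein in the first and second d7 libraries only. Which transcripts the cells use was not measured, so these shares rest on the chosen lengths of 5831 and 5525 bases.

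JUP, or plakoglobin, is the armadillo protein shared with adherens junctions. Its normalized read counts were 13329, 13801 and 14318 at d0, 15496, 15620 and 15215 at d1, and 15302, 15310 and 14871 at d4. They were 19242, 17378 and 15359 at d7 and 8938, 9355 and 8943 at d10. By d15 the libraries had 15702, 15013 and 15095, followed by 9654, 9369 and 9497 at d20. The d10 and d20 libraries stood well below all others and the rest were near or above d0. The log2 fold change was -0.61 ± 0.05 at d10 (limma, adjusted p = 1.8e-09) and -0.54 ± 0.05 at d20 (adjusted p = 1.3e-08). The small positive differences at d1 (0.16), d4 (0.13) and d15 (0.14) passed the threshold on the authors' scale but turned to -0.032, -0.063 and -0.015 with libraries rescaled to the same total and to -0.11, -0.092 and -0.078 after quantile normalization.

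PKP1, the plakophilin of stratified epithelia, had 14082, 13959 and 14771 normalized reads at d0, 13088, 12391 and 12487 at d1, and 13534, 13451 and 13144 at d4. It had 24223, 22331 and 15643 at d7 and 9960, 10034 and 10211 at d10. Later counts were 19237, 19069 and 18917 (d15) and 12459, 12180 and 12125 (d20). It was above all untreated libraries at d7 and d15 and below them at d1, d4, d10 and d20. The log2 fold change was 0.51 ± 0.09 at d7 (limma, adjusted p = 4.0e-05), -0.50 ± 0.09 at d10 (adjusted p = 4.9e-05) and 0.42 ± 0.09 at d15 (adjusted p = 0.00028), the last 0.16 (adjusted p = 0.064) after quantile normalization. At d20 it was -0.22 ± 0.09, with an adjusted p = 0.041 that no longer passed when any 1 library of d0 or d20 was left out (-0.24 to -0.19) or without the filter on low values.

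PKP2, the plakophilin of simple epithelia and heart, followed a course of its own. Its normalized read counts were 1649, 1580 and 1658 at d0, 1259, 1327 and 1301 at d1, and 1100, 1085 and 1078 at d4. They were 932, 866 and 1041 at d7 and 1071, 1004 and 1134 at d10. The d15 libraries had 786, 772 and 711, and the d20 libraries 851, 822 and 869. All 18 treated libraries were below the untreated ones and the lowest values came at d15, when most other members were high. The log2 fold change was -0.33 ± 0.06 at d1 (limma, adjusted p = 4.5e-05), -0.79 ± 0.06 at d7 (adjusted p = 1.2e-10), -1.11 ± 0.06 at d15 (adjusted p = 1.6e-13) and -0.94 ± 0.06 at d20 (adjusted p = 4.9e-12). PKP2 was called lower at all 6 treated timepoints.

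PKP3, a plakophilin of most epithelia, had 1266, 1306 and 1359 normalized reads at d0, 1683, 1576 and 1698 at d1, and 1402, 1429 and 1482 at d4. It had 1508, 1511 and 1668 at d7 and 1661, 1665 and 1623 at d10. By d15 the libraries had 1518, 1558 and 1475, followed by 1177, 1104 and 1035 at d20. It was above the untreated libraries through d15 and below them at d20, and at d10, when the 7 members that moved together were low, it was near its peak. The log2 fold change was 0.33 ± 0.05 at d1 (limma, adjusted p = 6.1e-06), 0.33 ± 0.05 at d10 (adjusted p = 4.6e-06) and -0.25 ± 0.05 at d20 (adjusted p = 0.00018). The rise at d10 was 0.10 (adjusted p = 0.073) with libraries rescaled to the same total, and the small difference at d4 (0.13, adjusted p = 0.020) turned to -0.063 there.

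DSP, the plakin that anchors keratins and a part of every desmosome, had 21103, 20446 and 20618 normalized reads at d0, 20336, 20490 and 18596 at d1, and 28021, 26898 and 28156 at d4. It had 43206, 41739 and 26956 at d7 and 15381, 16354 and 15674 at d10. Later counts were 28988, 29360 and 28188 (d15) and 14475, 14872 and 14877 (d20). All d4, d7 and d15 libraries were above and all d10 and d20 libraries below the untreated ones, while d1 overlapped with them. The log2 fold change was 0.42 ± 0.10 at d4 (limma, adjusted p = 0.0011), 0.82 ± 0.10 at d7 (adjusted p = 5.7e-07), -0.39 ± 0.10 at d10 (adjusted p = 0.0022), 0.48 ± 0.10 at d15 (adjusted p = 0.00029) and -0.49 ± 0.10 at d20 (adjusted p = 0.00031). The rise at d4 was 0.22 under both other scalings (adjusted p = 0.052 with the same total, 0.061 with quantiles), and that at d15 was 0.19 with quantiles (adjusted p = 0.098).

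The DSP promoter held the word CACCTG at 2 places in its 250 bases, 178 and 85 bases before the start, and is shown because DSP had the largest change of any member at d7. Capitals mark the word in the stretch chr6:7541473-7541611 (GRCh38.p14, plus strand).
DSP: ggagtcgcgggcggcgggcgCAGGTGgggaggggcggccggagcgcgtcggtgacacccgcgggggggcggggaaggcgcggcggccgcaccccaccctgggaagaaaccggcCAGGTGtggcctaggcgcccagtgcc

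PERP, the membrane protein named above and a target of p53 and p63, had 16127, 15773 and 15862 normalized reads at d0, 12066, 11711 and 11433 at d1, and 17452, 16542 and 16396 at d4. It had 24369, 24566 and 12993 at d7 and 7933, 7887 and 7477 at d10. The d15 libraries had 18094, 18827 and 18368, and the d20 libraries 7065, 7024 and 7341. As for DSG3, d1, d10 and d20 were below the untreated range and the third d7 library was below it too, while the other d7 libraries were above. The log2 fold change was -0.44 ± 0.14 at d1 (limma, adjusted p = 0.0094), -1.04 ± 0.14 at d10 (adjusted p = 1.0e-06) and -1.16 ± 0.14 at d20 (adjusted p = 2.6e-07), the last a fall of 2.23-fold. At d15 it was 0.21 ± 0.14 (adjusted p = 0.17), although its 3 libraries were above all untreated ones. It was called when only the d0 and d15 libraries were fitted (0.21, adjusted p = 2.7e-07). After quantile normalization it turned to -0.023 (adjusted p = 0.88).

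Of the 8 members with a RefSeq entry, PERP alone had TGAGTCA, the letters of an AP-1 site, on either strand (TGACTCA) of its 250 bases, a word found in 4.20% of all stretches. It is shown in capitals in chr6:138107494-138107540 (GRCh38.p14, minus strand).
PERP: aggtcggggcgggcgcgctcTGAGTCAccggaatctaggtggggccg

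After the first day of treatment 3 of the 10 genes were called higher and 5 lower than d0, where 31.3% of all genes tested were called higher and 28.5% lower. By d4 the members stood at 4 higher and 1 lower, beside 36.9% and 35.3% of all genes. The d7 libraries had 8 members higher and 1 lower (34.6% and 32.6% of all genes). Cells of d10 had 2 higher and 8 lower (37% and 30.7%). Those of d15 turned to 7 higher and 2 lower (39.2% and 37.3%). In the last samples, d20, 1 was higher and 9 lower (32.5% and 30.2%). On the authors' scale the share of members called was thus above the background in the higher direction for d7 and d15. In the lower direction it was above it for d1, d10 and d20, and the higher share at d4 was near it. With quantile normalization, 4 of the 10 were higher at d7 (29.3% of all genes) and 3 at d15 (36.6%). With libraries rescaled to the same total, 3 were higher at d7 (22.7%) and 4 at d15 (30.3%). These comparisons all use the same 3 untreated libraries.

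The median log2 fold change of the 10 members was negative on 3 of the days, with -0.25 (d1), -0.61 (d10) and -0.74 (d20), and positive on the others, with 0.032 (d4), 0.29 (d7) and 0.30 (d15). The median of all genes tested was between -0.00047 and 0.031. Rescaling each library to the same total put the median of all genes at the treated timepoints between -0.20 (d20) and -0.14 (d15). With it the higher and lower members numbered 1 and 7 (d1), 1 and 4 (d4), 3 and 1 (d7), 0 and 8 (d10), 4 and 2 (d15), and 0 and 10 (d20). On this scale 18.3% to 30.3% of all genes were called higher and 47.2% to 50.8% lower, depending on the timepoint, so the members' counts of lower calls are to be read against about that share.

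**Figure D3:**
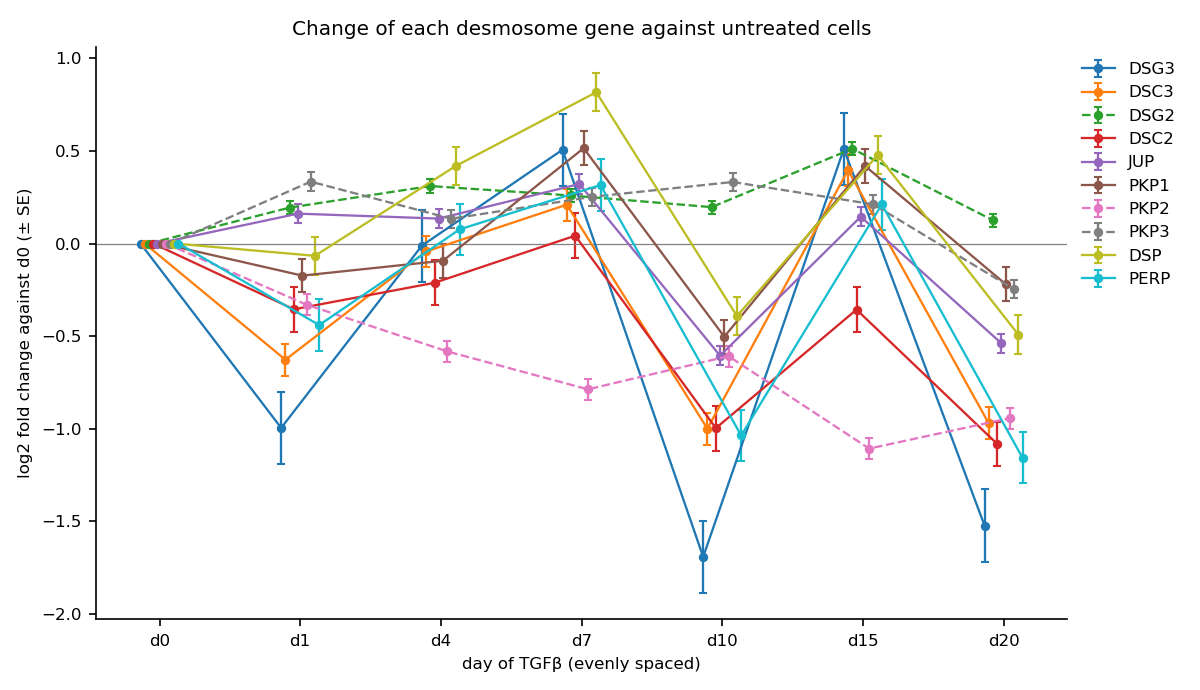
Log2 fold change of the 10 desmosome genes against d0 (y axis, limma on log2 of the value plus 1) at each day of TGFβ (x axis, evenly spaced). Points are estimates, bars are 1 SE, and dashed lines mark DSG2, PKP2 and PKP3. The other 7 fell to between -1.69 and -0.39 at d10, whereas DSG2 and PKP3 were at 0.20 and 0.33. With libraries rescaled to the same total DSG2 was at -0.031 and PKP3 at 0.105 there, neither of them called.

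Few changes reached 2-fold. Called genes with a change of at least 2-fold were absent among the members in the higher direction at all 6 timepoints, where the background was 6.47% (d1), 9.68% (d4), 8.79% (d7), 6.94% (d10), 11.7% (d15) and 7.51% (d20). In the lower direction there were none at d1, d4 and d7 (background 3.87%, 5.03% and 2.93%), 2 at d10 (DSG3 and PERP, background 7.34%), 1 at d15 (PKP2, background 8.66%) and 3 at d20 (DSG3, DSC2 and PERP, background 4.72%). DSG3 at d1 (-0.995), DSC3 at d10 (-0.999) and DSC2 at d10 (-0.997) lay just short of the limit, by less than their SE, as did DSC3 at d20 (-0.97 ± 0.09). PERP at d10 (-1.04 ± 0.14) and DSC2 at d20 (-1.08 ± 0.12) lay past it by less than their SE.

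Steps between consecutive timepoints show where the genes turned. From d1 to d4, 5 members rose (DSC3, DSG2, DSG3, DSP and PERP) and 2 fell (PKP2 and PKP3), where 32.9% and 32% of all genes did. From d4 to d7, 5 rose (DSC3, DSG3, DSP, JUP and PKP1) and PKP2 fell, with 25.5% of all genes in each direction. The number that rose in this step was 7 without the third d7 library, where 29.2% of all genes did, and 1, PKP1, when only the d4 and d7 libraries were fitted, where 14.8% did.

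From d7 to d10, 7 members fell (35.2% of all genes did) and PKP2 rose (36.2%). The falls were of 2.20 ± 0.20 on the log2 scale for DSG3 (limma, adjusted p = 2.9e-09), 1.35 ± 0.14 for PERP (adjusted p = 2.2e-08), 1.21 ± 0.09 for DSC3 (adjusted p = 1.2e-10) and 1.21 ± 0.10 for DSP (adjusted p = 1.7e-09). Without the third d7 library they were larger, -2.63 for DSG3 and -1.66 for PERP. DSG2 joined them with -0.091 (adjusted p = 0.0091), giving 8 that fell, where 36.8% of all genes did. From d10 to d15, 8 members rose (39.3% of all genes) and 2 fell (40.5%), led by DSG3 with 2.20 ± 0.20 (adjusted p = 1.2e-09), DSC3 with 1.396 ± 0.09 (adjusted p = 3.1e-12) and PERP with 1.25 ± 0.14 (adjusted p = 4.1e-08). PKP2 with -0.50 ± 0.06 (adjusted p = 7.3e-08) and PKP3 with -0.12 ± 0.05 (adjusted p = 0.030) were the ones that fell, and PKP3 was no longer called by edgeR or DESeq2 on the recovered reads and turned to 0.013 after quantile normalization.

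From d15 to d20, 9 members fell (36.3% of all genes) and PKP2 rose (37.7%). DSG3 fell by 2.03 on the log2 scale (SE 0.20, limma, adjusted p = 6.4e-09), DSC3 and PERP by 1.37 each, and DSP by 0.97. The members with the largest changes were the same, DSG3, DSC3 and PERP, in the rise to d15 and the fall to d20, and those steps share the d15 libraries.

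**Figure D4:**
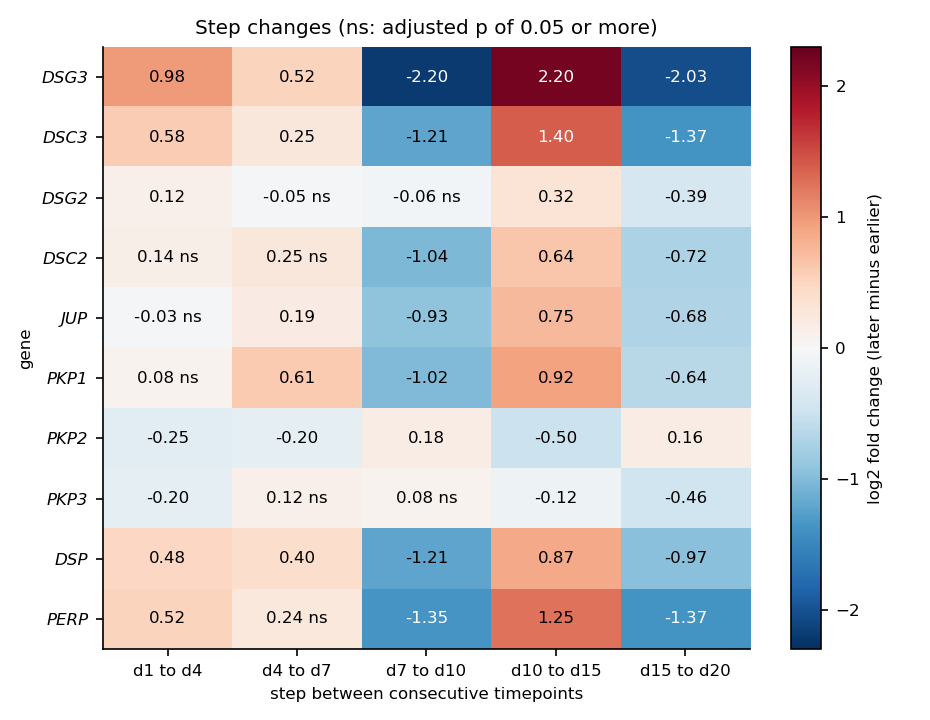
Log2 fold change of each desmosome gene (rows) between consecutive timepoints (columns, later minus earlier), with the value in each cell and "ns" where the adjusted p was 0.05 or more. The step from d7 to d10 is called negative and that from d10 to d15 called positive for the 7 genes that moved together, with DSG3 at -2.20 and 2.20. DSG2 has the same signs, at -0.063 (ns) and 0.32, while PKP2 has the opposite sign in both. The PKP3 values in these steps, 0.080 and -0.12, turned sign after quantile normalization.

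The size of the d7 peak depended on the third d7 library. Its level was lower than that of the other d7 libraries by 2.46-fold for DSG3, 1.88-fold for PERP, 1.71-fold for DSC2, 1.58-fold for DSP, 1.49-fold for PKP1, 1.44-fold for DSC3 and 1.19-fold for JUP. For DSG2 the gap was 1.06-fold, and for PKP2 and PKP3 the third library was higher, by 1.158-fold and 1.105-fold. The genes that separated it were the ones that fell from d7 to d10. The first and second d7 libraries differed by at most 0.15 on the log2 scale for any member.

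Without the third d7 library, 9 members instead of 8 were called higher at d7, DSC2 being the one added, where 36.8% of all genes were. The log2 fold changes against d0 without this library were 0.94 for DSG3, 1.03 for DSP, 0.71 for PKP1 and 0.62 for PERP. With it the calls of DSG3 (0.51, adjusted p = 0.027), DSC3 (0.21, adjusted p = 0.037) and PERP (0.32, adjusted p = 0.049) at d7 were close to the threshold, and none of the 3 passed when only the d0 and d7 libraries were fitted. MKI67, a marker of proliferating cells chosen after its values were seen, was at 7210 and 6834 in the first and second d7 libraries and at 11850 in the third.

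**Figure D5:**
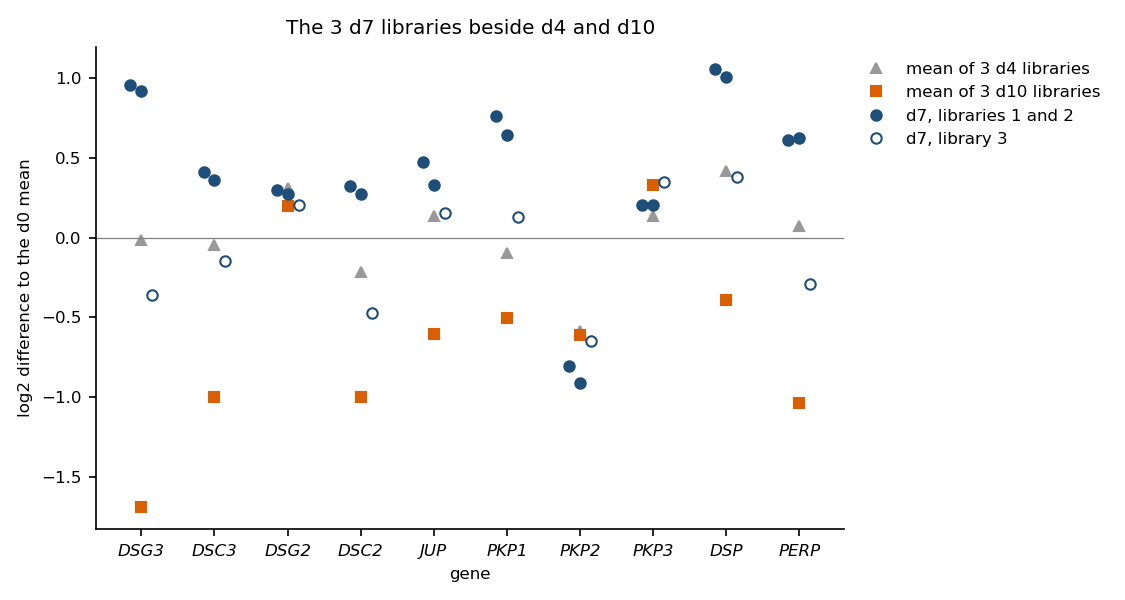
Log2 difference of each d7 library from the d0 mean (y axis) for the 10 desmosome genes (x axis). Filled circles are the first and second d7 libraries, open circles the third, and triangles and squares the means of the d4 and d10 libraries; for DSG3 the d7 libraries were at 0.96, 0.92 and -0.36, and for DSG2 all 3 were between 0.20 and 0.30.

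MKI67 also changed at other timepoints. Its untreated libraries had 10626, 10739 and 10649, those of d1 between 9104 and 10198, those of d4 between 7175 and 7589 and those of d10 between 10829 and 11607. In the d15 libraries it was down to 3385, 3226 and 3261, and in those of d20 it was between 11872 and 12311. It was lowest at d15, when DSG3, DSC3 and PKP1 were high, and highest at d20 and in the third d7 library. The part of proliferation in the changes of the desmosome genes was not tested.

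Among themselves, the 7 members that moved together had Pearson correlations between 0.71 and 0.99 over the 21 libraries (21 pairs), on log2 of the value plus 1. DSG2, PKP2 and PKP3 correlated with these 7 by between -0.35 and 0.56. These describe profiles over libraries that share timepoints and size factors. Set against all other genes with a mean of at least 50, the profiles most like DSG3 were those of PIK3R1 (r = 0.98) and TMC4 (0.98), those most like DSC3 were PIK3R1 (0.99) and TRIM29 (0.98), and those most like PERP were MTUS1 (0.97) and TMC4 (0.97). DSP was followed by RCBTB2 (0.99) and HS6ST1 (0.98), PKP1 by HSPB1 (0.99) and NYNRIN (0.99), DSC2 by FXYD3 (0.98) and PRRG4 (0.98), and JUP by NKPD1 (0.96) and PRSS12 (0.95). DSG2 had ZDHHC9 (0.96) and SOCS3 (0.95), PKP2 had MST4 (0.97) and MBP (0.97), and PKP3 had no close match, with CCDC120 (0.82) and PLP2 (0.80) as the nearest.

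Some members shared the order of their timepoints and others did not. DSG3 ran, from high to low, d7, d15, d0, d4, d1, d20 and d10, where d7 overlapped with d15 and d0 with d4, and PKP1 ran in the same order. For PERP the order was d7, d15, d4, d0, d1, d10 and d20, with an overlap of d7 and d15 alone. DSC2 ran d7, d0, d4, d1, d15, d10 and d20, and JUP ran d7, d1, d15, d4, d0, d20 and d10. The ratio of the highest to the lowest timepoint mean was 4.97 for DSG3, 2.89 for PERP, 2.63 for DSC3, 2.53 for DSP, 2.24 for DSC2, 2.15 for PKP2, 2.06 for PKP1, 1.91 for JUP, 1.495 for PKP3 and 1.43 for DSG2.

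Other genes of the desmosome and its cornified relatives were measured too. Of 8 listed, 6 had enough signal, and at d20 4 of these were lower (DSC1, EVPL, PPL and KAZN) and none higher, where 30.2% and 32.5% of all genes were. PKP4, a relative of the plakophilins, was at -0.10 there (limma, adjusted p = 0.082) and CDSN at -0.029 (adjusted p = 0.85). DSC1, the desmocollin of upper layers, fell by 2.59 on the log2 scale at d20 (SE 0.38, limma, adjusted p = 5.1e-06), from 32, 27 and 35 normalized reads at d0 to 3, 2 and 11. EVPL, or envoplakin, a plakin of the cornified envelope, fell by 2.55 (SE 0.14, adjusted p = 7.4e-13), from 766, 806 and 828 to 158, 120 and 131, and did not return at d15 (124, 123 and 99). PPL, or periplakin, the partner of envoplakin, is named after its values were seen. It had 5637, 5615 and 5874 normalized reads at d0, 1292, 1257 and 1287 at d1, 2007, 1919 and 1926 at d4, and 3326, 2961 and 2027 at d7. Later it had 579, 543 and 618 (d10), 4341, 4199 and 4196 (d15), and 1060, 1011 and 1028 (d20). Unlike DSG3, it was called lower at every timepoint, d7 (-1.07) and d15 (-0.43) included.

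The hemidesmosome list, of genes that fasten keratins to the basement membrane instead of to other cells, held mostly higher genes. At d20, 8 of 9 tested genes were higher and DST, a plakin chosen after its values were seen, was lower. Of all genes, 32.5% were higher and 30.2% lower there. LAMA3, a chain of laminin 332, was up by 2.85 ± 0.04 on the log2 scale (limma, adjusted p = 1.0e-22). The count was 8 higher and 1 lower at d1, d4 and d10 too, and 9 higher at d7 and d15. From d1 to d15, 31.3% to 39.2% of all genes were higher, depending on the timepoint. DST had log2 fold changes against d0 of -0.68 at d10, 0.73 at d15 and -0.36 at d20. ITGB4 and COL17A1, also named after their values were seen, fell and rose in the same steps as DST while staying above d0: from d7 to d10 ITGB4 changed by -0.72, from d10 to d15 by 1.15 and from d15 to d20 by -1.04, and COL17A1 by -0.68, 0.31 and -0.83.

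Keratins and vimentin, the intermediate filaments, split. At d20, 4 of 12 were higher and 5 lower, where 32.5% and 30.2% of all genes were. The largest changes were a fall of KRT15 by 4.90 (SE 0.22, limma, adjusted p = 1.7e-14) and a rise of VIM by 3.62 ± 0.08 (adjusted p = 4.3e-20). VIM was called higher at every timepoint and did not turn back at d15. KRT5, a main basal keratin named after its values were seen, was at -1.15 ± 0.15 at d10 (adjusted p = 6.2e-07), -0.35 ± 0.15 at d15 (adjusted p = 0.036) and -1.04 ± 0.15 at d20 (adjusted p = 3.0e-06). Not all keratins ran this way, as KRT14 and KRT7, also named after their values were seen, show. KRT14 was at -0.085 ± 0.12 at d10 (adjusted p = 0.53) and 0.33 ± 0.12 at d20 (adjusted p = 0.016). KRT7 was at 2.77 ± 0.14 at d10 and 1.59 ± 0.14 at d15.

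Of the adherens junction list, 4 of 10 were higher and 4 lower at d20, against 32.5% and 30.2% of all genes. CDH2 rose by 6.05 ± 0.16 on the log2 scale (limma, adjusted p = 1.6e-18) and CDH1, or E-cadherin, fell by 1.33 (SE 0.06, adjusted p = 1.7e-14). CDH1 shared the alternation in part: its normalized read counts were 7314, 6946 and 7324 at d0, 3618, 3689 and 3855 at d10, 6468, 6395 and 6149 at d15, and 2838, 2910 and 2857 at d20. Thus at d15 it stayed just below the untreated libraries while DSG3 and DSC3 were above them.

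Among 11 tested epithelial and EMT transcription factors, 5 were higher and 6 lower at d20, where 32.5% and 30.2% of all genes were. The former held ZEB1 and the latter GRHL1, a regulator of desmosomal cadherins in skin, at -3.19 ± 0.21 (limma, adjusted p = 1.6e-11). GRHL1 did not return at d15, where it was at -2.91 ± 0.21. TP63, the master factor of basal epithelia and chosen after its values were seen, was at -0.29 ± 0.04 at d10 (adjusted p = 9.2e-07), 0.28 ± 0.04 at d15 (adjusted p = 1.5e-06) and -0.40 ± 0.04 at d20 (adjusted p = 9.6e-09). At d1, where DSG3, DSC3 and PERP were lower, it was higher, at 0.15 ± 0.04 (adjusted p = 0.0028). Of the 7 genes of desmosome assembly and turnover, 4 were higher and 2 lower at d20, beside the same 32.5% and 30.2%. PRKCA, a kinase known to regulate desmosome adhesion, was at 1.31 ± 0.04 (adjusted p = 5.3e-17) and ARVCF, an armadillo protein, at -1.61 ± 0.28 (adjusted p = 4.2e-05).

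Cell type markers were set beside these changes. All 6 mesenchymal markers were called higher at each treated timepoint, where 31.3% to 39.2% of all genes were. Their summed level rose from between 9378 and 9805 in the d0 libraries to between 519711 and 550438 at d10 and between 492444 and 521305 at d15. At d15, 7 of the 10 desmosome genes were called higher on the authors' scale, and DSC2 and PKP2 lower. The mesenchymal sum stayed far above d0 there and was slightly lower than at d10, with overlapping ranges. Most of it was FN1, with means of 478741 at d10 and 443372 at d15, so it says little about the other markers. The summed level of the 6 basal markers, in contrast, was between 349072 and 373134 at d0, 247902 and 252304 at d10, 573805 and 593824 at d15, and 310373 and 315516 at d20, and between 391669 and 770997 at d7. Its genes differed among themselves: the KRT17 mean was 39309 at d0, 13305 at d10 and 186677 at d15, while ITGA6 and ITGB4 were called higher than d0 at d10, ITGA6 was at 25315 at d10 and 13794 at d15, and KRT5 was called lower at d15. The 10 luminal markers summed to between 17637 and 18987 at d0, 13078 and 13368 at d10, 16776 and 17092 at d15, and 13550 and 13950 at d20, with ELF5 and KIT at or under 3 reads throughout. The part of a shift between cell states in the results was not tested.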

How the data were processed

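The deposited signal values cover 23201 symbols in 21 libraries of HMLE cells. The authors made each one from the reads of a gene and the size factor of its library, and whole reads were recovered for 100% of them within 0.1 read. The submitters' processing notes name STAR 2.7, Salmon 1.4 and hg19 without saying which was used where. A counting tool is not given in the sources used here, nor is the use of strand. Genes with a mean of at least 10 (13343) were compared by limma 3.58.1 (R 4.3.3, eBayes with trend) on log2 of the value plus 1. The fit had a mean for each timepoint and 1 variance per gene over all 21 libraries, so the SE also takes in the spread at d7. P-values were adjusted by Benjamini-Hochberg over all genes tested in each of 11 contrasts, with a threshold of 0.05. Fold changes are on that log2 scale. Ratios within a library were compared by two-sided exact permutation tests (scipy 1.17.1).

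Results were recomputed without the filter, with a pseudocount of 10, after quantile normalization, with libraries brought to one total, from only the 2 timepoints compared, with edgeR 4.0.16 and DESeq2 1.42.0 on the recovered reads, a change of at least 2-fold, and each library left out in turn. All 10 members are named, with the 2 genes of largest change at d20 in each other list and the 2 genes most alike in profile to each member, and further genes are marked as chosen after their values were seen. Some genes that these lists hold are not reported here. The members and lists were chosen with earlier results of these data known. The fits were tested on simulated data. Promoters came from RefSeq (GRCh38.p14), a build other than hg19 and used for sequence only, and lengths from GENCODE. Figures were drawn with matplotlib 3.10.9.

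At d20, edgeR on the recovered reads called 4089 genes higher and 4370 lower, DESeq2 4120 and 3877, and limma 4341 and 4024.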

Additional observations from a re-analysis of the deposited data

How the results depend on the processing

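No paired analysis was possible because no column of the table is named with a replicate number. Members called higher with libraries rescaled to the same total were 1 (d1), 1 (d4), 3 (d7), 0 (d10), 4 (d15) and 0 (d20), and lower at d4 4, where 18.3% to 30.3% of all genes were higher and 49.5% lower at d4. With quantile normalization they were 1, 1, 4, 1, 3 and 0, and lower at d4 3, where 25.4% to 36.6% of all genes were higher and 40.9% lower at d4. The share of 36.6% was that of d15. With only the 2 timepoints fitted, 3 were lower at d4 (37.5% of all genes) and 5 higher at d7 (28.2%). In the steps of that fit, 1 was higher and 0 lower from d4 to d7 (14.8% and 16.5%), and 0 higher from d7 to d10 (32%). edgeR called 2 higher at d4, where it called 34.6% of all genes higher. In the later steps, the higher count from d7 to d10 was 0 with quantiles (37.8% of all genes). The lower count from d10 to d15 was 1 with the same total, quantiles, edgeR and DESeq2 (36.9% to 39.8% of all genes). The higher count from d15 to d20 was 0 with the same total (35.3%) and quantiles (36.1%). With a change of at least 2-fold, 0 members were higher at each timepoint, and 0, 0, 0, 2, 1 and 3 were lower.

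Leaving out each library in turn gave 2 to 4 higher at d4, 5 to 9 at d7, 3 to 7 from d4 to d7, 0 to 2 from d7 to d10 and 0 to 1 from d15 to d20, and 1 to 2 lower from d10 to d15. With all libraries, 36.9% of all genes were higher at d4, 34.6% at d7 and 25.5% from d4 to d7. From d7 to d10 it was 36.2% and from d15 to d20 37.7%, and 40.5% were lower from d10 to d15. At d4 the low count came without the first d0 library, and at d7 5 were left without library 2 or 3 of d0 or library 1 or 2 of d7. The log2 ratio differences nearest 0 ran from -0.025 to 0.016 (DSC3/DSC2 at d10) and from -0.023 to 0.041 (DSG3/DSG2 at d15).

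Signs turned for small differences only. With the same total these were JUP at d1 (-0.032), d4 (-0.063) and d15 (-0.015), PKP3 (-0.063) and PERP (-0.12) at d4, DSC2 at d7 (-0.15), and DSG2 at d10 (-0.031) and d20 (-0.075). With quantiles they were DSG2 at d1 (-0.026), d10 (-0.067) and d20 (-0.080), JUP at d1 (-0.11), d4 (-0.092) and d15 (-0.078) and from d1 to d4 (0.018), PERP at d4 (-0.13) and d15 (-0.023), DSC2 at d7 (-0.039), and PKP3 from d7 to d10 (-0.0031) and from d10 to d15 (0.013). With a library left out, DSG3 at d4 ran from -0.047 to 0.026 and DSC2 at d7 from -0.099 to 0.30. The cause was not tested. In all, 1287 of 1430 member values kept their sign and their side of the threshold. These values include the fits with a library left out, which share most of their data with the main fit. Among the other settings, most values that did not keep them came with the same total or with quantiles. The total thus says little about how far the calls depend on the scaling.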
